A study of Mus musculus with 6 samples.

Results

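Ubiquitin-conjugating enzymes (E2s) were examined in the mouse microglial line BV2 after knockdown of TonEBP, the tonicity-responsive transcription factor encoded by Nfat5. Every gene of the count table whose symbol starts with Ube2 was taken and pseudogenes were left out, which gave 37 of 21899 genes. Of these, 36 encode an E2 or an E2 variant, and Ube2cbp, also called Ube3d, encodes a ligase-like protein that binds an E2. The sh-TonEBP cells carried a lentiviral shRNA against Nfat5 and the sh-NC cells a scrambled shRNA, with 3 libraries per group. BV2 is an immortalized line kept in culture, no stimulus is given for either group, and the labels state no time after transduction, no clone and no word on whether replicates were separate cultures. The p-values therefore cover only the variation among these 6 libraries, part of which may be technical.

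E2s stand in the middle of a relay. An E1 enzyme activates ubiquitin or a ubiquitin-like protein, passes it to the catalytic cysteine of an E2, and the E2 hands it, usually with the help of an E3 ligase, to a lysine of the substrate. The E2 often decides which chain is built: chains through lysine K48 or K11 mark proteins for the proteasome, and chains through K63 act in signaling and DNA repair. Some E2s carry ISG15, NEDD8 or SUMO in place of ubiquitin. In microglia and other innate immune cells, ubiquitin chains relay Toll-like receptor and TNF signals toward NF-κB, and ISG15 conjugation belongs to the interferon response.

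Nfat5, the gene targeted by the shRNA, had 3894, 4631 and 5257 counts in the sh-TonEBP libraries, against 9641, 11640 and 9652 counts in the sh-NC libraries. The groups did not overlap, and Nfat5 fell by 1.14 ± 0.162 on the log2 scale (SE; edgeR quasi-likelihood test, Benjamini-Hochberg adjusted p = 0.000159, as for all adjusted p-values here). The libraries held 13621188 to 16140042 counts in sh-TonEBP and 15288505 to 15555269 counts in sh-NC, and 3 counts, the limit that a count of 0 allows, corresponded to 0.186 to 0.220 CPM (the count scaled by library size) across the libraries. Defining markers of microglia were scarce: 8 of 12 stayed under 1 CPM in every library, P2ry12, Siglech and C1qa had 0 counts, and the summed level of the list was 66.2 to 83.0 CPM in sh-TonEBP and 46.6 to 55.0 CPM in sh-NC. The leukocyte list summed to 63.8 to 74.1 CPM in sh-TonEBP and 68.8 to 74.6 CPM in sh-NC, with 6 of 12 markers under 1 CPM. Of 10 fibroblast markers, 7 were tested and 6 rose, the summed level was 1568 to 1727 CPM in sh-TonEBP and 472 to 514 CPM in sh-NC, Thy1 was at 0, and Col3a1 made up 80.9% of the sum. Of 10 epithelial markers, 3 were tested and 1, Krt8, rose, with a summed level of 1217 to 1526 CPM in sh-TonEBP and 628 to 762 CPM in sh-NC. Krt8 alone made up 87.1% of that sum, 7 of the 10 stayed under 1 CPM in every library, and Krt14 was at 0. The part of these markers in the E2 results below was not tested, and in bulk RNA fewer cells of a type and less RNA per cell cannot be told apart.

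More Ube2 genes were higher than lower in the sh-TonEBP cells. Of the 37 genes, 32 passed the filter on low counts, and 13 of these rose (40.6%), 5 fell (15.6%) and 14 did not pass an adjusted p of 0.05. Among all 11943 genes tested, 26.3% were called higher and 26.2% lower. Every sh-TonEBP library lay above every sh-NC library in 17 members, against 31.2% of all genes, and below in 6 members, against 31.5% of all genes. The median log2 fold change was 0.29 over the tested members and 0.00 over all genes tested (0.000723), so the members' median stood above that of the table, while single changes were small: the median absolute log2 fold change was 0.37 in the members and 0.44 over all genes, and 2 members (6.25%) changed by more than 2-fold, against 15.1% of all genes. Ube2cbp, which is not an E2, is among the 13 higher members, and the 2 members beyond 2-fold are Ube2l6 and Ube2cbp. The members together took 0.321%, 0.320% and 0.323% of the counts in sh-TonEBP, against 0.294%, 0.283% and 0.288% in sh-NC. The number of lower members changed when single libraries were left out. It was 3 without sh-NC replicate 2, and 4 without sh-TonEBP replicate 1 or 2 or sh-NC replicate 1 or 3.

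**Figure D1:**
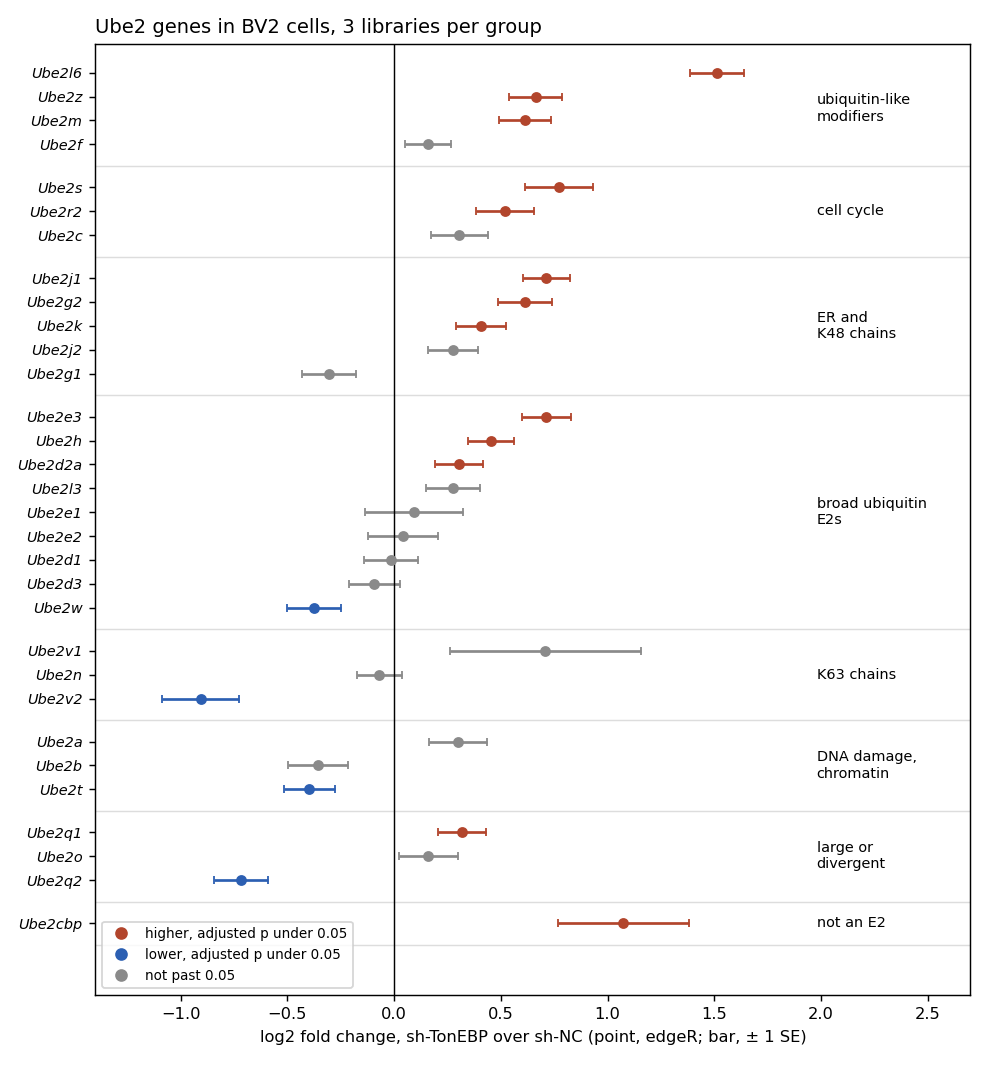
Log2 fold change of 31 of the 32 tested Ube2 genes (x axis, sh-TonEBP over sh-NC, point with a bar of 1 SE on each side), grouped by role from top to bottom, with red for the 13 genes higher and blue for 4 of the 5 genes lower at an adjusted p under 0.05. Ube2l6 stands farthest to the right at 1.51 and Ube2v2 farthest to the left at -0.91.

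The starts of 4 member genes are shown because they carry the contrasts described below: Ube2l6, the member with the largest change, Ube2c and Ube2s, which act on the same ligase and gave different fold changes, and Ube2j1, an E2 of the endoplasmic reticulum. They are RefSeq promoter windows of the build GRCm38.p6, 250 bases before to 50 bases after the start site, 5′ to 3′ on the strand of the gene. Capitals mark every match, on either strand, to CCAAT (the NF-Y box), TTTGAA (the core of the cell cycle element CHR), TGACG (found in cyclic AMP response elements), CCACG (found in endoplasmic reticulum stress elements), TTCNNNGAA (the interferon-gamma element GAS), GAAANNGAAA (an ISRE-like repeat) and the TonE consensus of TonEBP.
Ube2l6, chr2:84798578-84798877, plus strand: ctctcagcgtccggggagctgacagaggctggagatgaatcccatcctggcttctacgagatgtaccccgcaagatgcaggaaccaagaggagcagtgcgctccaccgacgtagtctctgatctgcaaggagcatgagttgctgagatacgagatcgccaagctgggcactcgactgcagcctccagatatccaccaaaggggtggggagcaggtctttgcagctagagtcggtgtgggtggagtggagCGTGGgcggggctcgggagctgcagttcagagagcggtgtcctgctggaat
Ube2c, chr2:164769679-164769978, plus strand: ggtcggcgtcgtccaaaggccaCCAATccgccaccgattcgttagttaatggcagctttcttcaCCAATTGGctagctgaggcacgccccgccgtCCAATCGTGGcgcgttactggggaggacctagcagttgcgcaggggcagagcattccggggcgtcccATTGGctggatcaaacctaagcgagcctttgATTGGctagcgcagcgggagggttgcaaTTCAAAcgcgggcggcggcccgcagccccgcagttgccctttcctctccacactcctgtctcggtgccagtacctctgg
Ube2s, chr7:4812291-4812590, minus strand: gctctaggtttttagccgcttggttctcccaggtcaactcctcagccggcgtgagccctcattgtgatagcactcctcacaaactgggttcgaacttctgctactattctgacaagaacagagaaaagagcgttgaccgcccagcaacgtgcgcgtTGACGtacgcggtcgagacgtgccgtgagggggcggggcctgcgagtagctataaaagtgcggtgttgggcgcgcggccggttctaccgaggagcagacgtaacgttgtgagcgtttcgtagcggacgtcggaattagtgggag
Ube2j1, chr4:33031130-33031429, plus strand: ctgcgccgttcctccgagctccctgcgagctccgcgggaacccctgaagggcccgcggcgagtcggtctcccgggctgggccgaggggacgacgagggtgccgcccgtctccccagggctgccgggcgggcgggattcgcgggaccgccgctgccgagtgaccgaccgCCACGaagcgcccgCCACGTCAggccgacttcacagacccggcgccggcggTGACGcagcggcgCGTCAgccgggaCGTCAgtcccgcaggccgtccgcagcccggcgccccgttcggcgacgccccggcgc
Of the 37 members, 30 were matched to 41 such windows in a table of 32851 windows. The Ube2c window held 6 CCAAT boxes on the 2 strands together and 1 TTTGAA, which starts 29 bases before the start site on the minus strand of the window, whereas neither sequence was found in the Ube2s window. The Ube2j1 window held 4 TGACG and 2 CCACG; 1 TGACG and 1 CCACG share bases. The TonE consensus was in 4.96% of all windows and in 0 of the members' 41, GAAANNGAAA in 3.44% of all windows and in 1 of the members' (Ube2dnl1, which had 0 counts), TTCNNNGAA in 8.3% and 4, TTTGAA in 17.9% and 4, CCAAT in 37.4% and 9, TGACG in 20.8% and 10, and CCACG in 32.8% and 19. A match is a match of letters and not a measured binding site.

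The E2 of ISG15 changed most. Ube2l6 encodes the E2 that carries ISG15, the interferon-induced ubiquitin-like protein. It had 687, 661 and 587 counts in the sh-TonEBP libraries, against 216, 232 and 239 counts in the sh-NC libraries. All sh-TonEBP libraries lay far above all sh-NC libraries, at 42.3 ± 0.742 CPM in sh-TonEBP and 14.8 ± 0.855 CPM in sh-NC (SD, n = 3 each). The log2 fold change was 1.51 ± 0.126 (SE), a 2.85-fold increase (adjusted p = 5.65e-06), and it was called higher in all 14 alternative fits, with log2 fold changes of 1.31 to 1.54. Its nearest relative Ube2l3, a ubiquitin E2 that works with HECT and RBR ligases such as parkin, had 2048, 1984 and 1480 counts in sh-TonEBP, against 1349, 1679 and 1547 counts in sh-NC. Those groups overlapped (log2 fold change 0.28 ± 0.126, adjusted p = 0.0798). Ube2l3 was called higher in 3 of 14 alternative fits, with 0.54 (adjusted p = 0.000981) once the trends of the fold change with transcript length and GC content were removed. Moreover, 28.59% of the exonic bases of Ube2l3 lie opposite to Ydjc, whose reads could not be told apart from its own if the counting ignored the strand. Within each library, the log2 ratio of Ube2l6 to Ube2l3 was -1.58, -1.58 and -1.33 in sh-TonEBP, against -2.64, -2.85 and -2.69 in sh-NC. The balance of the pair thus moved by 1.23 on the log2 scale, or 2.35-fold (two-sided exact permutation test, p = 0.10, the smallest value that 3 against 3 libraries allow, and 0.13 adjusted over 13 pairs).

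Other genes of the ISG15 relay rose with Ube2l6. Of the 7 genes listed for ISG15 conjugation, which include Ube2l6, 5 rose and 1 fell, so that 4 of the other 6 rose. With Ube2l6 counted, 71.4% rose and 14.3% fell, against 26.3% and 26.2% of all genes tested. Isg15 itself had 193, 237 and 242 counts in sh-TonEBP, against 36, 11 and 24 counts in sh-NC, a log2 fold change of 3.27 ± 0.304 (adjusted p = 1.24e-05). Uba7, the E1 that activates ISG15, had 115, 104 and 159 counts in sh-TonEBP, against 45, 39 and 36 counts in sh-NC (1.69 ± 0.256, adjusted p = 0.000228). Usp18, the protease that removes ISG15, had 121, 119 and 90 counts in sh-TonEBP, against 30, 30 and 23 counts in sh-NC (2.0 ± 0.228, adjusted p = 3.52e-05). All 3 of these genes were thus low in sh-NC and apart from it in every sh-TonEBP library. The gene that fell was Arih1, an RBR ligase (-0.51), which was named after its value was seen, and it was no longer called once the trends on length and GC content were removed.

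Of the E2s of NEDD8, Ube2m rose and Ube2f did not pass the test, but the calls changed places once the trends on length and GC content were removed. Ube2m and Ube2f carry NEDD8, the modifier that switches on cullin-RING ligases. Ube2m had 1665, 1367 and 1148 counts in sh-TonEBP, against 999, 878 and 879 counts in sh-NC. Its groups were apart, at 91.0 ± 11.7 CPM in sh-TonEBP and 59.5 ± 4.09 CPM in sh-NC (SD, n = 3 each), with a log2 fold change of 0.61 ± 0.123 (adjusted p = 0.00142). With these trends removed, Ube2m was not called (0.08, adjusted p = 0.464). Ube2f had 1193, 1324 and 1094 counts in sh-TonEBP, against 1074, 1036 and 1161 counts in sh-NC, and after scaling its libraries were apart by a narrow margin (0.16 ± 0.108, adjusted p = 0.223). With the trends removed, Ube2f was called higher (0.37, adjusted p = 0.00403). The ratio of Ube2m to Ube2f was higher by 0.45 on the log2 scale in sh-TonEBP (exact permutation p = 0.10). Among the 14 listed genes of NEDD8 conjugation, both E2s included, 5 rose (35.7%) and 3 fell (21.4%), against 26.3% and 26.2% of all genes. Uba3, the catalytic subunit of the NEDD8 E1, fell by 0.91 ± 0.227 on the log2 scale (adjusted p = 0.00785). It had 459, 840 and 845 counts in sh-TonEBP, against 1393, 1418 and 1314 counts in sh-NC. Rbx1, the RING subunit of most cullin ligases, rose by 0.66, and Senp8, the NEDD8 protease, fell by 0.85.

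Of 17 genes of SUMO conjugation, 4 rose (23.5%) and 7 fell (41.2%), with a median log2 fold change of -0.32. Over all genes tested, 26.3% rose and 26.2% fell. Sumo3 (0.76), the SUMO ligase Pias3 (0.77) and the E1 subunit Sae1 (0.51) rose, and Senp5, a SUMO protease, fell by 0.49. With the trends on length and GC content removed, 3 SUMO genes were higher and 2 lower.

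Ube2z, an E2 that is charged by the E1 enzyme Uba6 and can carry ubiquitin or the ubiquitin-like protein FAT10, rose. It had 3260, 3014 and 2802 counts in sh-TonEBP, against 2239, 1582 and 1997 counts in sh-NC. The groups were apart, with sh-NC replicate 2 the lowest, and the log2 fold change was 0.66 ± 0.126 (adjusted p = 0.000992). Uba6, which was named for this role after its value was seen, had 842, 1302 and 1341 counts in sh-TonEBP, against 1721, 2079 and 1706 counts in sh-NC, a fall of 0.63 ± 0.196 on the log2 scale (adjusted p = 0.0201). Of the 10 E1 genes, 4 rose (40%) and 3 fell (30%), against 26.3% and 26.2% of all genes tested. Without sh-NC replicate 2, 4 E1 genes were called higher and 1 lower. With the trends on length and GC content removed, 3 were higher and 1 lower.

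**Figure D2:**
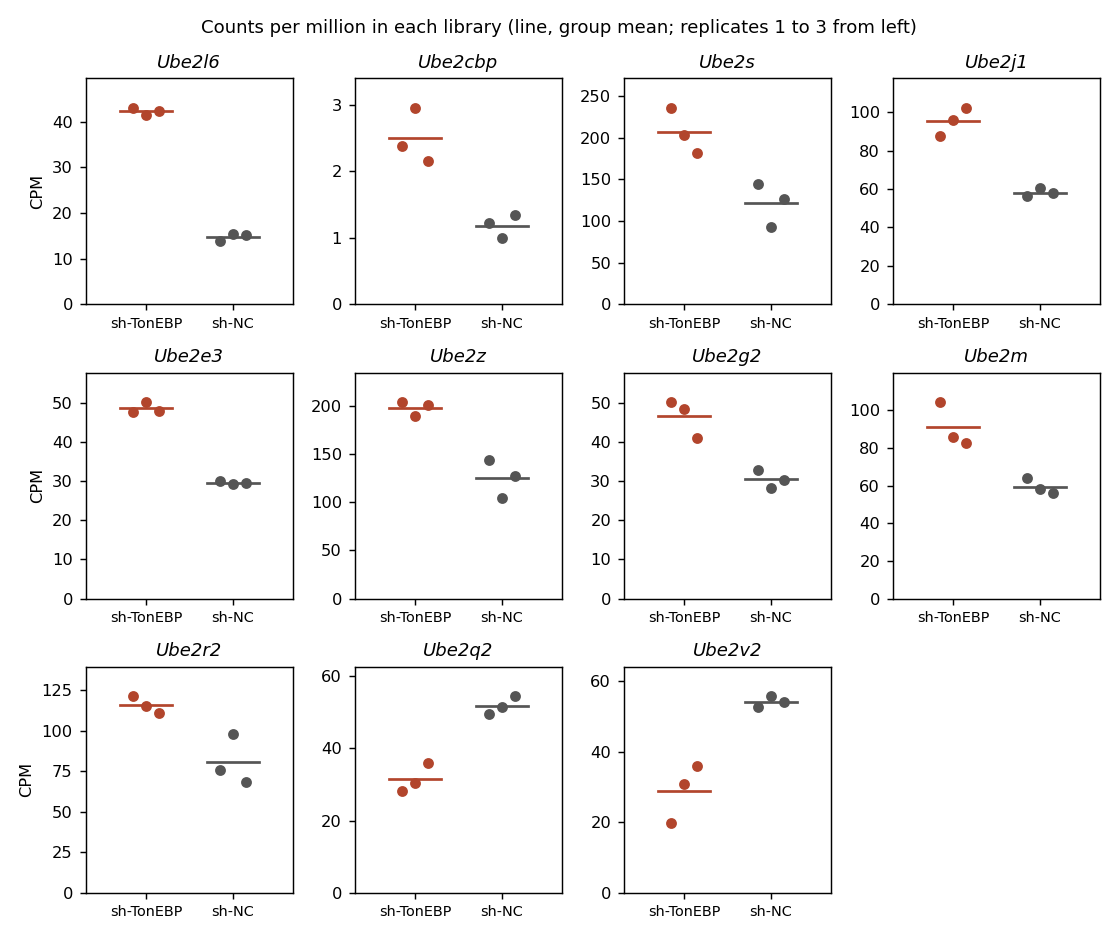
CPM (y axis, each panel from 0) of the 11 Ube2 genes past an adjusted p of 0.05 with a log2 fold change of at least 0.5 in either direction, 1 point per library and a line at the group mean, sh-TonEBP in red and sh-NC in grey. In each panel the groups do not overlap, and Ube2v2 shows 1 sh-TonEBP library below the other 2.

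Among the E2s of cell cycle ligases, Ube2s rose and its partner Ube2c did not pass the test. The anaphase-promoting complex (APC/C), the ligase that ends mitosis, uses Ube2c to start chains and Ube2s to extend them through K11. Ube2s had 3766, 3241 and 2533 counts in sh-TonEBP, against 2247, 1399 and 1988 counts in sh-NC. Although replicates varied within both groups, the groups were apart, at 207 ± 27.0 CPM in sh-TonEBP and 121 ± 26.2 CPM in sh-NC (SD, n = 3 each), and the log2 fold change was 0.77 ± 0.158 (adjusted p = 0.00172). Rpl28, which overlaps 3.56% of the exonic bases of Ube2s on the opposite strand, was also counted at a high level. It had 9256, 9361 and 5783 counts in sh-TonEBP, against 6724, 3462 and 5841 counts in sh-NC. Its reads in the overlap could not be told apart from those of Ube2s if the counting ignored the strand. Their part in the values of Ube2s was not tested. Ube2c had 2442, 2171 and 1687 counts in sh-TonEBP, against 1963, 1417 and 1766 counts in sh-NC, and its groups overlapped after scaling (0.30 ± 0.133, adjusted p = 0.0705). The log2 ratio of Ube2c to Ube2s was -0.62, -0.58 and -0.59 in sh-TonEBP, against -0.19, 0.02 and -0.17 in sh-NC. The ratio was therefore close to constant among the sh-TonEBP libraries and lower there by 0.48 (exact permutation p = 0.10).

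The APC/C subunits and regulators gave 7 higher genes (41.2%) and 1 lower gene (5.88%) of 17, against 26.3% and 26.2% of all genes tested. Anapc2, the cullin-like subunit (0.76), Anapc7 (0.67), Anapc11, the RING subunit (0.62), and Anapc5 (0.64) had the smallest p-values. The gene called lower, Cdc27 (-0.54), was named after its value was seen, and its call was lost without sh-NC replicate 2. Of 28 proliferation markers, 8 rose (28.6%) and 7 fell (25%), near the 26.3% and 26.2% of all genes tested. Their summed level was 6410 to 7060 CPM in sh-TonEBP and 6970 to 8682 CPM in sh-NC. The part of proliferation in the value of Ube2s was not tested.

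Ube2r2, an E2 of the SCF cullin ligases that builds K48 chains, had 1935, 1832 and 1538 counts in sh-TonEBP, against 1180, 1482 and 1071 counts in sh-NC. The groups were apart and the log2 fold change was 0.52 ± 0.136 (adjusted p = 0.00714). Its paralog Cdc34, which serves the same ligases, had 1410, 1080 and 974 counts in sh-TonEBP, against 850, 669 and 781 counts in sh-NC (0.61 ± 0.134, adjusted p = 0.00263). Both genes rose, and the ratio of Ube2r2 to Cdc34 overlapped between the groups (difference -0.07). Of 8 SCF core genes, Rbx1 and Cks1b rose in edgeR and 0 fell, also at an unadjusted p under 0.05 and in DESeq2, and 1 rose without sh-NC replicate 3. In edgeR 25% rose, near the 26.3% of all genes tested, and 0% fell, against 26.2%. With the trends on length and GC content removed, 4 SCF core genes were higher.

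Of the 5 E2s of the endoplasmic reticulum and of K48 chains, 3 were higher and 0 lower in edgeR at an adjusted p under 0.05, with 1 lower, Ube2g1, at an unadjusted p under 0.05 and 0 lower in DESeq2. In edgeR this was 60% higher and 0% lower, against 26.3% and 26.2% of all genes tested. Ube2j1 and Ube2j2 are anchored in the membrane of the endoplasmic reticulum, where they serve the degradation of misfolded proteins (ERAD). Ube2j1 had 1401, 1523 and 1419 counts in sh-TonEBP, against 875, 910 and 904 counts in sh-NC. The groups were far apart, at 95.3 ± 7.21 CPM in sh-TonEBP and 58.1 ± 2.13 CPM in sh-NC (SD, n = 3 each), and the log2 fold change was 0.71 ± 0.110 (adjusted p = 0.000265), called in all 14 alternative fits. Ube2j2 had 1450, 1151 and 1155 counts in sh-TonEBP, against 1062, 989 and 1089 counts in sh-NC (0.28 ± 0.117, adjusted p = 0.0621). The ratio of Ube2j1 to Ube2j2 was higher by 0.44 on the log2 scale in sh-TonEBP, with the 2 groups apart (exact permutation p = 0.10).

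Ube2g2, the E2 that builds K48 chains in ERAD, and Ube2g1, an E2 of K48 chains for cullin ligases, gave values of opposite sign, which was not so once the trends on length and GC content were removed. Ube2g2 had 802, 770 and 572 counts in sh-TonEBP, against 512, 426 and 475 counts in sh-NC (0.61 ± 0.129, adjusted p = 0.00184), and its value was 0.27 with these trends removed (adjusted p = 0.0292). Ube2g1 had 1083, 1174 and 1111 counts in sh-TonEBP, against 1525, 1480 and 1212 counts in sh-NC, and its groups overlapped after scaling (-0.30 ± 0.126, adjusted p = 0.0595). With the trends removed, the value of Ube2g1 was 0.05 (adjusted p = 0.706). The log2 ratio of Ube2g1 to Ube2g2 was 0.43, 0.61 and 0.96 in sh-TonEBP, against 1.57, 1.80 and 1.35 in sh-NC. The ratio was lower in every sh-TonEBP library, by 0.91 on average (exact permutation p = 0.10). Ube2k, which builds K48 chains without the need for a ligase in vitro, rose by 0.41 ± 0.119 on the log2 scale (113 ± 7.65 CPM in sh-TonEBP and 85.3 ± 9.57 CPM in sh-NC, SD, n = 3 each, adjusted p = 0.012). Its call was lost without sh-TonEBP replicate 2 (adjusted p = 0.0534) or sh-NC replicate 3 (0.0513).

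Of the 23 tested ERAD genes, 11 rose (47.8%) and 1 fell (4.35%), with a median log2 fold change of 0.35. Over all genes tested, 26.3% rose and 26.2% fell. The ligases Rnf185 (0.66) and Syvn1, also called Hrd1 (0.68), and the membrane proteins Selenos (0.91) and Ubxn8 (0.86) had the smallest p-values. The gene that fell was Ufd1 (-0.33), a cofactor of the segregase p97, which was named after its value was seen and lost its call without sh-TonEBP replicate 1 or sh-NC replicate 3. With the trends on length and GC content removed, 14 ERAD genes were higher and 2 lower.

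**Figure D3:**
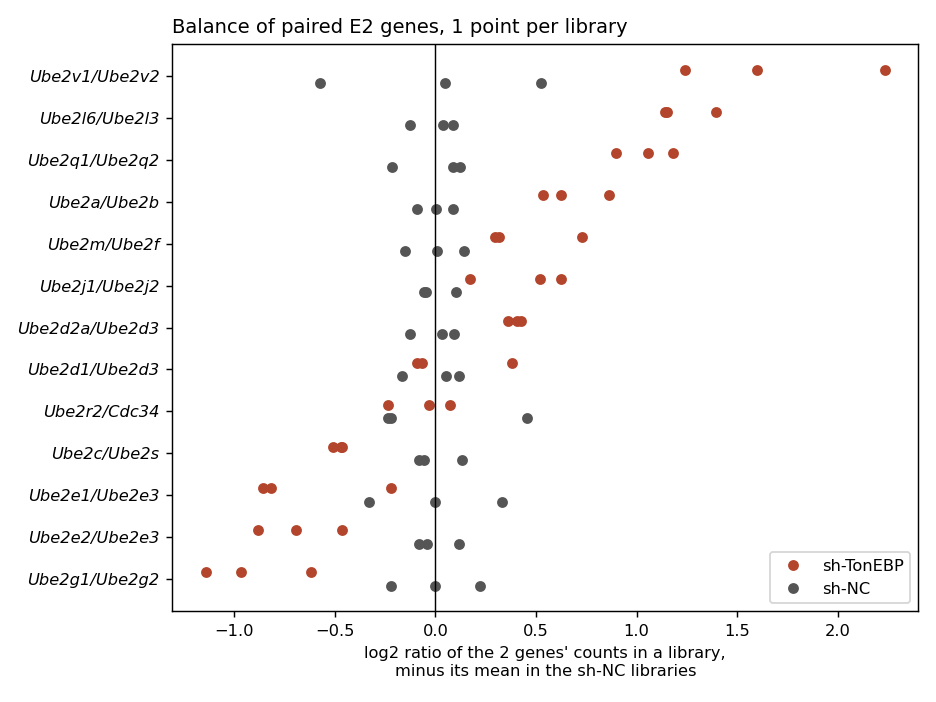
Log2 ratio of the counts of 2 related E2 genes in each library, minus its mean over the sh-NC libraries (x axis), for 13 pairs (rows), with sh-TonEBP points in red above sh-NC points in grey. In 10 pairs the 3 sh-TonEBP points lie apart from the 3 sh-NC points, from 1.69 for Ube2v1/Ube2v2 to -0.91 for Ube2g1/Ube2g2. The Ube2v1 level is uncertain, at 5 to 14 counts per library. Of all single genes tested, 31.2% lay above and 31.5% below in every sh-TonEBP library, and no share was taken over other gene pairs.

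The broad ubiquitin E2s, which start chains with many ligases, gave 3 higher genes (33.3%) and 1 lower gene (11.1%) of 9 tested. Over all genes tested, the shares were 26.3% and 26.2%. Ube2e3, whose family has an extended amino terminus, had 762, 799 and 665 counts in sh-TonEBP, against 468, 442 and 464 counts in sh-NC. Replicates lay close together, at 48.6 ± 1.40 CPM in sh-TonEBP and 29.7 ± 0.353 CPM in sh-NC (SD, n = 3 each), and the log2 fold change was 0.71 ± 0.114 (adjusted p = 0.000327). Its relatives Ube2e1 and Ube2e2 overlapped between the groups, with log2 fold changes of 0.09 ± 0.230 and 0.04 ± 0.163. Ube2e1 had 165, 262 and 140 counts in sh-TonEBP, against 225, 134 and 177 counts in sh-NC, and 16.11% of its exonic bases lie opposite to Nkiras1. Ube2e2 had 238, 213 and 155 counts in sh-TonEBP, against 196, 180 and 217 counts in sh-NC. The ratio of Ube2e2 to Ube2e3 was lower in every sh-TonEBP library, by 0.68 on the log2 scale (exact permutation p = 0.10), while that of Ube2e1 to Ube2e3 overlapped between the groups (-0.63).

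Ube2h, the E2 of the CTLH ligase, was the member with the highest level per exon length in sh-TonEBP. It had 5455, 4904 and 4288 counts in sh-TonEBP, against 3793, 3470 and 3548 counts in sh-NC, which was 320 ± 19.2 CPM in sh-TonEBP and 233 ± 8.70 CPM in sh-NC (SD, n = 3 each; 0.45 ± 0.106, adjusted p = 0.00358). In the Ube2d family, the E2s most widely used in vitro, Ube2d2a rose by 0.31 ± 0.113 on the log2 scale (adjusted p = 0.0372), whereas Ube2d1 (-0.01) and Ube2d3 (-0.09) overlapped between the groups. The call of Ube2d2a was lost when any library other than sh-TonEBP replicate 1 was left out (adjusted p = 0.0562 to 0.156). Ube2d3 had the highest mean CPM of all members, with 5233, 6192 and 5350 counts in sh-TonEBP, against 5955, 6488 and 5691 counts in sh-NC, over 24499 exonic bases. With the trends on length and GC content removed, Ube2d3 turned to 0.78 (adjusted p = 6.93e-05). Ube2w, which ubiquitinates the amino terminus of proteins, had 463, 542 and 507 counts in sh-TonEBP, against 651, 673 and 670 counts in sh-NC (-0.38 ± 0.127, adjusted p = 0.0247). That call was lost without sh-TonEBP replicate 1 or 2 or sh-NC replicate 2 or 3 (adjusted p = 0.0540 to 0.0757), and the value was 0.04 (adjusted p = 0.769) with the trends removed.

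In the K63 module, the variant subunit Ube2v2 fell and the catalytic subunit Ube2n did not pass the test. Ube2n (Ubc13) builds K63 chains only together with a variant that lacks the catalytic cysteine, Ube2v1 in NF-κB signaling or Ube2v2 (Mms2) in DNA repair. Ube2n had 2651, 2881 and 2561 counts in sh-TonEBP, against 2747, 2980 and 2875 counts in sh-NC, and the groups overlapped after scaling (-0.07 ± 0.106, adjusted p = 0.602), although its value turned to 0.28 (adjusted p = 0.017) with the trends on length and GC content removed. Ube2v2 had 317, 492 and 500 counts in sh-TonEBP, against 822, 840 and 846 counts in sh-NC. The sh-NC libraries were nearly equal, sh-TonEBP replicate 1 was the lowest, and the groups were apart, at 28.9 ± 8.25 CPM in sh-TonEBP and 54.2 ± 1.49 CPM in sh-NC (SD, n = 3 each). Ube2v2 fell by 0.91 ± 0.182 on the log2 scale, or 1.87-fold (adjusted p = 0.00156), and its value was -0.28 (adjusted p = 0.0284) with the trends removed.

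Ube2v1 was nearly silent as counted, with 14, 14 and 11 counts in sh-TonEBP, against 11, 5 and 8 counts in sh-NC (0.71 ± 0.446, adjusted p = 0.195). However, 61.48% of its exonic bases are shared on the same strand with the readthrough gene Gm20431, which itself had 0 counts, and the counting of shared reads is not stated, so the level of Ube2v1 and its ratio to Ube2v2 (higher by 1.69) are uncertain. Of 10 tested K63 ligases, 3 rose (30%) and 5 fell (50%), against 26.3% and 26.2% of all genes tested. Peli1, an E3 of Toll-like receptor signaling, fell by 1.03 ± 0.136 on the log2 scale (adjusted p = 9.46e-05), Rnf8, which works with Ube2n at DNA breaks, by 1.3 ± 0.20 (adjusted p = 0.000259) and Traf6, the E3 of Ube2n in NF-κB signaling, by 0.66 ± 0.126 (adjusted p = 0.00108). Traf2, an adaptor of TNF receptors, rose by 0.78 ± 0.118 (adjusted p = 0.000221).

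The E2s of DNA damage and chromatin showed 1 lower gene of 3, Ube2t, but with the trends on length and GC content removed Ube2a was called higher and Ube2t was not called. As tested, 0% were higher and 33.3% lower, against 26.3% and 26.2% of all genes tested. Ube2a and Ube2b are the mammalian counterparts of yeast RAD6, which modify PCNA with Rad18 and histone H2B with Rnf20 and Rnf40. Ube2a had 455, 544 and 436 counts in sh-TonEBP, against 428, 398 and 354 counts in sh-NC (0.30 ± 0.136, adjusted p = 0.0803), and its value was 0.51 (adjusted p = 0.00199) with the trends removed. Ube2b had 1278, 1921 and 1446 counts in sh-TonEBP, against 2058, 2034 and 1929 counts in sh-NC (-0.36 ± 0.141, adjusted p = 0.050, just over the threshold), and it passed in 7 of 14 alternative fits. For each of the 2 genes the groups were apart after scaling, in opposite directions. The log2 ratio of Ube2a to Ube2b was -1.49, -1.82 and -1.73 in sh-TonEBP, against -2.26, -2.35 and -2.44 in sh-NC, a difference of 0.67, or 1.60-fold (exact permutation p = 0.10). Ube2b thus remained the more counted gene of the pair in all 6 libraries, by less in sh-TonEBP.

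Of 9 genes for ligases and partners of RAD6, 1 rose (11.1%) and 7 fell (77.8%), with a median log2 fold change of -0.43. Over all genes tested, 26.3% rose and 26.2% fell. Ubr2, an E3 of the N-degron pathway, fell by 0.88 ± 0.106 on the log2 scale (adjusted p = 5.2e-05), Rad18 by 0.78 ± 0.132 (adjusted p = 0.000458), Hltf, which extends chains on PCNA, by 1.01 ± 0.179 (adjusted p = 0.000851) and Ubr1 by 0.42 ± 0.117 (adjusted p = 0.01). The lower genes of this list numbered 4 without sh-NC replicate 2 and 3 with the trends on length and GC content removed. The gene that rose, Rnf40 (0.35), was named after its value was seen, and it was not called without sh-TonEBP replicate 1 or any 1 sh-NC replicate.

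Ube2t, the E2 that puts ubiquitin on Fancd2 in the Fanconi anemia pathway, had 686, 804 and 599 counts in sh-TonEBP, against 986, 921 and 870 counts in sh-NC. The groups were apart and Ube2t fell by 0.40 ± 0.120 on the log2 scale (adjusted p = 0.0147). The call was lost without sh-NC replicate 1 (adjusted p = 0.0579) and with the trends on length and GC content removed (-0.15, adjusted p = 0.226). Of 14 Fanconi genes, Ube2t among them, 2 rose (14.3%) and 5 fell (35.7%), against 26.3% and 26.2% of all genes tested. Fanca fell by 1.17 ± 0.109 on the log2 scale (adjusted p = 1.07e-05) and Fancd2 by 0.70 ± 0.134 (adjusted p = 0.00105). The higher genes, Fancf (0.49) and Fancg (0.37), were named after their values were seen, and leaving out any 1 library left 0 or 1 of them called.

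Among the large or divergent E2s, the paralogs Ube2q1 and Ube2q2, which have long amino-terminal extensions and are less studied, changed in opposite directions. Ube2q2 had 451, 482 and 498 counts in sh-TonEBP, against 770, 776 and 850 counts in sh-NC. The groups were far apart, at 31.5 ± 3.93 CPM in sh-TonEBP and 51.7 ± 2.49 CPM in sh-NC (SD, n = 3 each), and Ube2q2 fell by 0.72 ± 0.128 on the log2 scale, or 1.64-fold (adjusted p = 0.000667), a call kept in all 14 alternative fits. Ube2q1 had 1313, 1285 and 1190 counts in sh-TonEBP, against 1077, 1059 and 940 counts in sh-NC (0.32 ± 0.111, adjusted p = 0.0287). Its call was lost without sh-TonEBP replicate 2 or 3 or sh-NC replicate 1 or 3 (adjusted p = 0.0538 to 0.169). The log2 ratio of Ube2q1 to Ube2q2 was 1.54, 1.41 and 1.26 in sh-TonEBP, against 0.48, 0.45 and 0.15 in sh-NC, higher by 1.04, or 2.06-fold (exact permutation p = 0.10). Ube2o, a large enzyme that combines E2 and E3 activity, overlapped between the groups (142 ± 27.3 CPM in sh-TonEBP and 127 ± 7.85 CPM in sh-NC, SD, n = 3 each; 0.16).

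Ube2cbp, the member that is not an E2, had 38, 47 and 30 counts in sh-TonEBP, against 19, 15 and 21 counts in sh-NC. The groups were apart at a low level, with a log2 fold change of 1.07 ± 0.307 (adjusted p = 0.0112). The remaining members were not tested: Ube2dnl1, Ube2dnl2 and Ube2u had 0 counts in every library, Ube2ql1 had 3 counts in 1 sh-NC library and 0 elsewhere, and Ube2d2b had 0 to 4 counts in sh-TonEBP and 0 or 1 in sh-NC.

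Levels can be compared between members per length, as TPM, which scales each count by the exonic length of its gene and then by the library. Among the highest in sh-TonEBP were Ube2h at 233 ± 15.8, Ube2c at 183 ± 17.8, Ube2z at 173 ± 13.0 and Ube2b at 166 ± 31.7 TPM (SD, n = 3), and the last 3 lay within their spreads of each other. Among the highest in sh-NC were Ube2b at 234 ± 9.05, Ube2h at 187 ± 2.77, Ube2n at 169 ± 12.2 and Ube2c at 163 ± 21.6 TPM (SD, n = 3), where Ube2n and Ube2c lay within their spreads of each other.

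Of the E2 and E2-variant genes with other names, 2 of 8 tested rose (25%) and 2 fell (25%). These shares were near the 26.3% and 26.2% of all genes tested. Ufc1, the E2 of the modifier UFM1, rose by 0.81 ± 0.172 on the log2 scale (adjusted p = 0.00206) and Cdc34 is described above. Birc6, a giant E2 that restrains apoptosis, fell by 0.59 ± 0.137 (adjusted p = 0.00349), and Atg10, the E2-like enzyme that carries ATG12 in autophagy, fell by 0.85 ± 0.221 (adjusted p = 0.00647). With the trends on length and GC content removed, 3 of the E2 and E2-variant genes with other names were higher and 1 lower. Of 13 genes for ubiquitin and ubiquitin-like proteins, 8 rose (61.5%, against 26.3% of all genes tested) in edgeR, with a median log2 fold change of 0.69. In edgeR 0 fell (against 26.2% of all genes tested), also at an unadjusted p under 0.05 and in DESeq2. Besides Isg15 and Sumo3, Ubb, a polyubiquitin gene, rose by 0.83 ± 0.141 (adjusted p = 0.000518) and Ubl5 by 0.89 ± 0.168 (adjusted p = 0.00105).

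**Figure D4:**
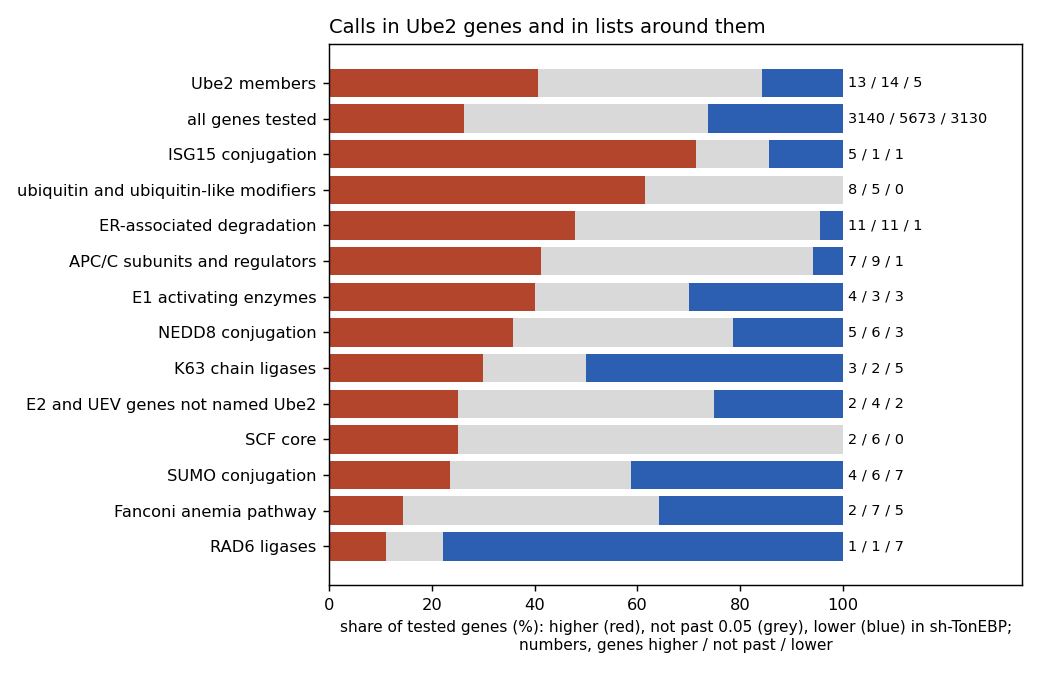
Share of tested genes (x axis, percent) called higher (red), not past an adjusted p of 0.05 (grey) and lower (blue) in sh-TonEBP, for the Ube2 genes, all genes tested and 12 lists around the E2s, with the numbers of genes at the right. The Ube2 bar is 40.6% red and 15.6% blue, against 26.3% and 26.2% over all genes, and the RAD6 ligases show 7 of 9 genes lower.

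Fold changes in these libraries followed gene structure. Across genes, the log2 fold change had a Spearman correlation of -0.32 with exonic length and 0.42 with GC content, as a description over genes that are not independent replicates. The tested members had a median of 4433 exonic bases, against 4534.5 over all genes tested. The GC content of the members was not compared with that of the table. When both trends were removed, 17 members were higher, 3 were lower and the median was 0.38. Nfat5 was then at -0.52. Ube2l6, Ube2j1, Ube2e3, Ube2s, Ube2z, Ube2g2, Ube2h, Ube2r2, Ube2cbp, Ube2q2 and Ube2v2 were called in the same direction under every one of the 14 alternative fits, this one included. The cause of the trends was not tested.

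**Figure D5:**
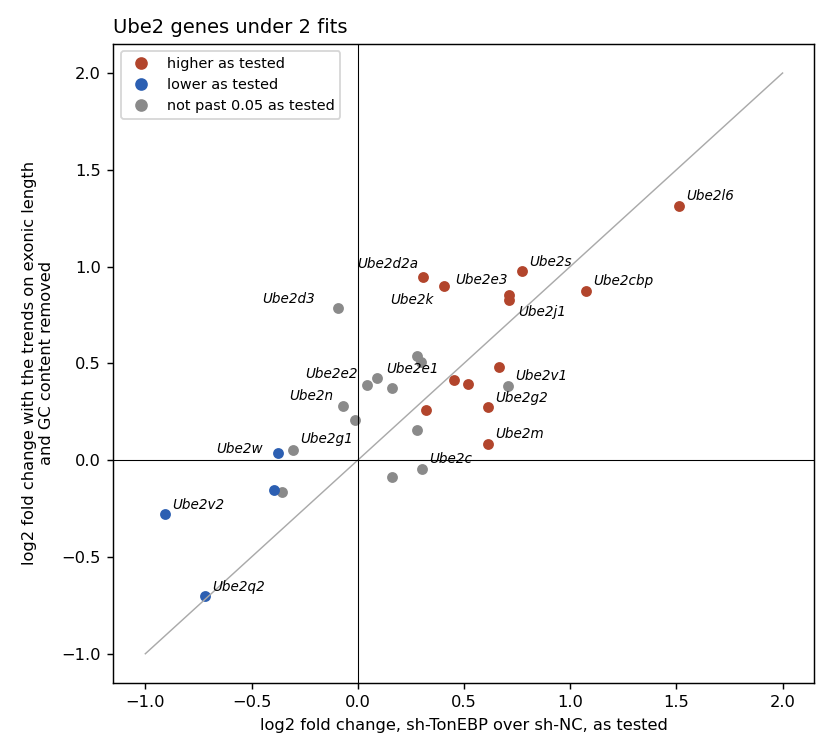
Log2 fold change of 31 of the 32 tested Ube2 genes as tested (x axis) and with the trends on exonic length and GC content removed (y axis), colored by the call as tested, with a diagonal where both are equal. Ube2l6 stays at the top at 1.31 and Ube2q2 at the bottom, while Ube2m drops to 0.08 and Ube2d3 moves up to 0.78.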

How the data were processed

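Poly(A) RNA of 6 BV2 libraries was sequenced, and the authors deposited 1 table of raw read counts per gene. According to the submitters' processing notes, tools included HTSeq 0.9.1, HISAT2 2.0.5, cutadapt 1.15 and DESeq 1.30.0, with GRCm39 as build. Strandedness, annotation release and the treatment of ambiguous reads were not given in the sources used here, which leaves overlapping genes uncertain. Column names give no target for the knockdown libraries, which were assigned by exclusion, the other columns being named for sh-NC.

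Of 21899 identifiers, 21795 were matched to symbols through GENCODE M21, an older annotation of GRCm38, which also gave exonic lengths and overlaps; the 104 others held 0.0671% of the counts. The deposited counts were filtered with filterByExpr, which left 11943 genes, scaled by TMM and fitted with the quasi-likelihood model of edgeR 4.0.16 (R 4.3.3, robust dispersion), with Benjamini-Hochberg adjustment over these genes. CPM are TMM-normalized. The fit was tested on simulated data in which few genes changed and no trend on length or GC content was set. These libraries differ in both, so the simulation gives no error rate for them. Log2 ratios of paired genes were taken from counts plus 0.5 and compared by a two-sided exact permutation test over the 6 libraries.

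Alternatives were DESeq2 1.42.0, RLE size factors, library totals, no filter on low counts, a minimum mean of 1 CPM, no robust dispersion, a replicate block, removal of loess trends (span 0.3) on exonic length and GC content, each library left out, and other thresholds. Values per library are given for members past an adjusted p of 0.05 with an absolute log2 fold change of at least 0.5 and for their paired genes, with others by range, and up to 4 genes with the smallest p-values are named per list. The members and lists were chosen with earlier results of these data known. Replicates of a group differed by more than sampling noise (chi-square over its degrees of freedom at least 5.33). The SEs and SDs cover the variation among these libraries, and the limit behind a count of 0 covers counting error only. The values of 1 tested member are not reported here, but it stays in the fit and in the counts.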

Additional observations from a re-analysis of the deposited data

How the results depend on the processing

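The median over the members stayed above 0 in each alternative fit. More members were higher than lower under each alternative tried, but at the 2-fold cutoff their share called higher was near that of all genes. Removing the trends on length and GC content gave 17 higher and 3 lower members, against 26.7% and 25.1% of all genes tested. The median log2 fold change was then 0.378 and 7 members changed sign, and the cause was not tested. Of these, Ube2n (0.281), Ube2d3 (0.784) and Ube2w (0.0385) passed the threshold in 1 of the 2 fits, and Ube2c (-0.0431), Ube2g1 (0.0504), Ube2o (-0.0850) and Ube2d1 (0.207) passed it in neither fit. Stricter cutoffs left fewer members by construction. More than 2-fold with a raw p under 0.05 left 2 higher (6.25%) and 0 lower members, against 6.38% and 8.53% of all genes. An adjusted p under 0.01 left 9 higher and 2 lower, against 18.1% and 17.9% of all genes. Leaving out each library in turn gave 10 to 14 higher and 3 to 5 lower members, against 20.6% to 25.4% and 21.3% to 25.8% of all genes. The median was then 0.224 to 0.311 (lowest without sh-TonEBP replicate 1) and the Nfat5 log2 fold change -1.32 to -0.997. DESeq2 gave 13 higher and 6 lower members, against 18.9% and 18.8% of all the genes it tested. With the replicate number as a block, 14 members were higher and 6 lower, against 26.4% and 27.5% of all genes, with a median of 0.290. The deviations of same-numbered libraries had correlations of 0.180, 0.0557 and -0.0717. With 3 libraries per group, these values cannot decide whether the numbers pair samples, and the labels do not state it. The lowest-count members limit the precision: a fold of Ube2v1 rests on 5 to 14 counts per library.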
